A study of Rattus norvegicus with 12 samples.

Results

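In crushed sciatic nerve of the rat, 96 gene IDs had a higher level in each of 6 libraries from animals given exosomes than in any of 6 libraries from animals given none. They were taken from 30562 Ensembl gene IDs in the deposited counts, of which 14298 had a count in at least 1 library. Levels are given in CPM, which puts libraries of different size on the same scale, here with the library total taken without its single largest gene. An ID was kept when its mean over the 12 libraries was at least 10 CPM and its lowest exosome library lay above its highest library without exosomes. Of 4032 IDs with that mean level, 102 met the rule (2.53%), and 6 of these were among 30 IDs that the rule sets aside, which left 96 members. The members were therefore chosen by the very values that compare libraries with and without exosomes, and their higher levels in the exosome libraries are a description and not a tested result. The opposite pattern, a lower level in every exosome library, was met by 80 IDs (1.98%).

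The deposited counts pair no ID with a gene name, and 0 of the 30562 IDs could be matched to the reference gene table used here. The members are therefore described by their levels, and only the 2 with the widest separation are given by ID. No function, sequence or promoter could be attached to any member, and the labelled tissue could not be checked against marker genes. No statement on pathways or cell types of the members can be made from these values.

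A crush damages the axons and inner sheaths of a nerve while the outer sheath, the epineurium, keeps the nerve continuous. Schwann cells then lose their myelin, divide and guide the regrowing axons, and macrophages enter to clear debris, so the RNA of a crushed nerve comes from several kinds of cell. Exosomes are small membrane vesicles that cells release and that carry proteins and RNA to other cells. Low intensity pulsed ultrasound (LIPUS) is a mechanical stimulus applied through the skin, which is used in bone healing and studied in nerve repair. In bulk RNA of such tissue, more cells of a type and more RNA per cell cannot be told apart.

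All rats were Sprague-Dawley rats (SD in the labels) with a crushed sciatic nerve, and the methods describe the study's animals as males 5 weeks old. Each of the 4 groups, named Control, Exosome, LIPUS and Exosome+LIPUS, held 3 libraries. The Exosome libraries are labelled with a 10 µL injection at 103, 104 and 105 µg/mL of exosomes from induced pluripotent stem cells, and the Exosome+LIPUS libraries with 100 µg/mL. These concentrations are given as the labels print them and are uncertain, since the study's methods state the injected dose in particles per volume, so no dose is compared here. Ultrasound was given in the LIPUS and Exosome+LIPUS groups at 250 mW/cm², 1 MHz and a 20% duty cycle for 5 min a day, 5 days a week for 4 weeks. The Control labels name the crush alone and no injected vehicle. Sampling on postoperative day 7 is described for crushed animals with vehicle or exosomes, whereas the sampling time of the ultrasound groups was not given in the sources used here. A later sampling of the ultrasound groups and the ultrasound itself cannot be told apart in any comparison between groups with and without it. The labels name whole brain as the tissue, while the extraction text and the study name sciatic nerve. The labels do not say that every library came from a separate animal, so p-values may measure only the spread between libraries.

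The 12 libraries held between 1251715 and 1854545 counts, so that 3 counts of a gene correspond to 2.01 to 2.45 CPM. The single largest gene, singled out after its values were seen, took 32.5% of the counts of Control replicate 9 and 9.28% of Exosome+LIPUS replicate 2. Its share was between 0.391% and 2.85% in the other libraries. The members had a lowest count in any library of between 3 and 4233 (median 131). Intervals from counts cover counting error only.

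The members had a higher median level than all IDs of the same minimum level, and most differed by less than 2-fold. Their mean level over the 12 libraries ranged from 10.4 to 4298.4 CPM with a median of 139 CPM, against a median of 74.7 CPM over the 4032 IDs. The mean of the 6 exosome libraries over the mean of the 6 others was between 1.14-fold and 5.55-fold, with a median of 1.56-fold and quartiles of 1.33-fold and 2.0-fold. It was at least 1.5-fold in 53 members, at least 2-fold in 24 and at least 3-fold in 5. Among the 80 IDs with the opposite pattern the median was 1.35-fold lower in the exosome libraries, 4 differed by at least 2-fold, and the largest difference was 2.9-fold.

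**Figure D1:**
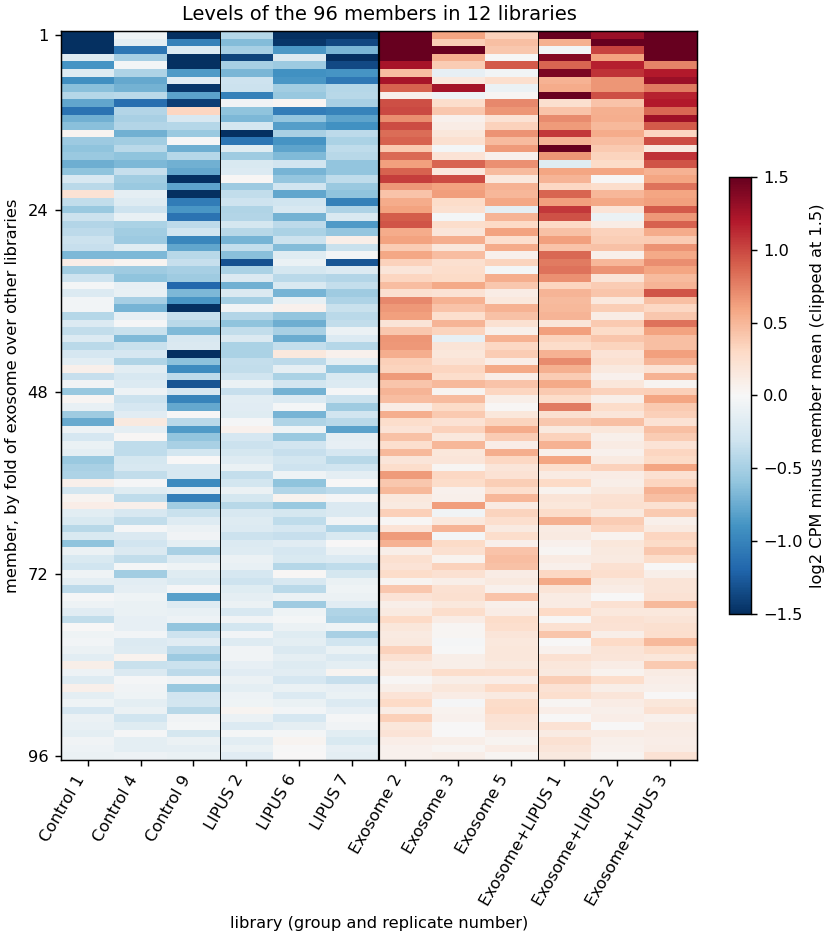
Each row is one of the 96 members, ordered by its fold, and each column one of the 12 libraries. Colour is the log2 CPM minus the member's mean, clipped at 1.5, and the 6 exosome libraries on the right are above the 6 others in every row because the members were chosen so, with Exosome replicate 2 and Exosome+LIPUS replicates 1 and 3 the darkest.

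The fold differed with the level of the member. In the 24 members of lowest level (10.4 to 52.9 CPM) the median fold was 2.08, with a range of 1.39 to 5.55. It was 1.57 in the 24 members from 56.6 to 136 CPM and 1.41 in the 24 from 142 to 343 CPM. In the 24 members of highest level (346 to 4298 CPM) it was 1.42, with a range of 1.14 to 2.64. Members with few counts were therefore the ones with the larger folds, and none of the 24 most abundant ones exceeded 2.64-fold. At few counts a small fold is less likely to separate the libraries, so the rule itself favours such a trend. The trend was not compared with that over all IDs.

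Summed over all members, the share of a library's counts without the largest gene was nearly constant within the groups that received no exosomes. It was between 2.74% and 2.79% in the Control libraries and between 2.80% and 2.83% in the LIPUS libraries. In the Exosome libraries it was 4.63%, 3.81% and 4.05% in replicates 2, 3 and 5. In the Exosome+LIPUS libraries it was 4.18%, 3.90% and 4.63% in replicates 1, 2 and 3. On this summed share the exosome libraries varied more among themselves than the others did, and replicate 3 of the Exosome group lay lowest of the 6. The sum weighs the most abundant members most. The rule used these same values and sets no upper limit on the exosome side, so this is a description and not a tested result.

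The separation was narrow in most members. The gap, the lowest exosome level divided by the highest level without exosomes, was between 1.00 and 1.47 with a median of 1.09 and quartiles of 1.03 and 1.16. It was at least 1.1 in 45 members, at least 1.2 in 18 and at least 1.3 in 9. The member just inside the limit had 253.70 CPM in its lowest exosome library and 253.69 CPM in its highest other library, and the next had 38.59 and 38.41 CPM. The ID just outside it had 403.32 and 403.57 CPM, and the next had 248.01 and 248.95 CPM. At the limit on the level, the members of lowest mean had 10.4 and 12.9 CPM, whereas separated IDs with means of 7.78 and 7.53 CPM were left out. In all, 14 separated IDs lay below the limit on the level.

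**Figure D2:**
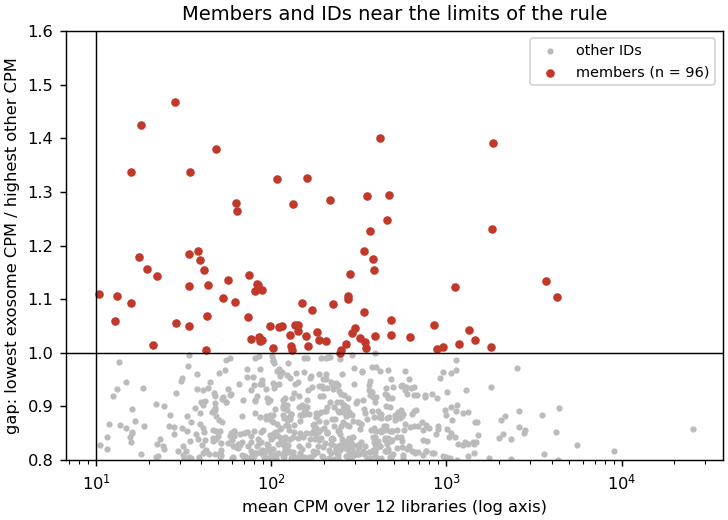
Points are gene IDs, with the mean CPM over 12 libraries on a log axis and the gap on the vertical axis. The 96 members lie above a gap of 1.00 and to the right of 10 CPM, and 45 of them have a gap of at least 1.1.

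Counting error alone was often as large as the gap. The 95% exact Poisson intervals of the lowest exosome library and of the highest other library did not overlap in 10 members and overlapped in 86. Each of the 10 had a mean of at least 354 CPM. The membership also rested on the scaling of the libraries. With edgeR's TMM factors 71 IDs met the rule and 67 of the 96 members were among them, and with RLE factors, the size factors of DESeq2, 70 IDs met it and 65 members were among them. With library totals that include the largest gene, 86 IDs met it and 75 members were among them.

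The member with the widest gap, 1.47, was ENSRNOG00000015644. Its level was 19.9, 17.9 and 15.2 CPM in the Control libraries and 18.0, 21.4 and 17.8 CPM in the LIPUS libraries. It was 41.3, 40.1 and 37.7 CPM in the Exosome libraries and 32.5, 31.4 and 46.1 CPM in the Exosome+LIPUS libraries. The 3 Exosome libraries lay close together, at 39.7 ± 1.81 CPM (SD, n = 3), against 17.6 ± 2.36 CPM (SD, n = 3) in Control. The 3 Exosome+LIPUS libraries were spread more widely, at 36.7 ± 8.19 CPM (SD, n = 3), and 2 of them lay below every Exosome library. These levels rested on 19 to 26 counts in Control, 22 to 32 in LIPUS, 47 to 53 in Exosome and 42 to 63 in Exosome+LIPUS. The fold was 2.25 for Exosome over Control and 1.92 for Exosome+LIPUS over LIPUS.

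ENSRNOG00000043328 had the next widest gap, 1.43, and a larger fold with more spread. Its level was 3.82, 11.7 and 6.39 CPM in Control and 8.17, 4.69 and 4.99 CPM in LIPUS. It was 38.9, 16.6 and 17.7 CPM in Exosome and 18.6, 44.3 and 40.3 CPM in Exosome+LIPUS. In both exosome groups the libraries were uneven, since Exosome replicate 2 and Exosome+LIPUS replicates 2 and 3 lay near 40 CPM and the other 3 below 20 CPM. The fold was 3.34 for Exosome over Control and 5.78 for Exosome+LIPUS over LIPUS, from 5 to 15 counts in the 6 libraries without exosomes and 22 to 62 in the 6 with them. At the gap the counting intervals of both IDs overlapped.

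**Figure D3:**
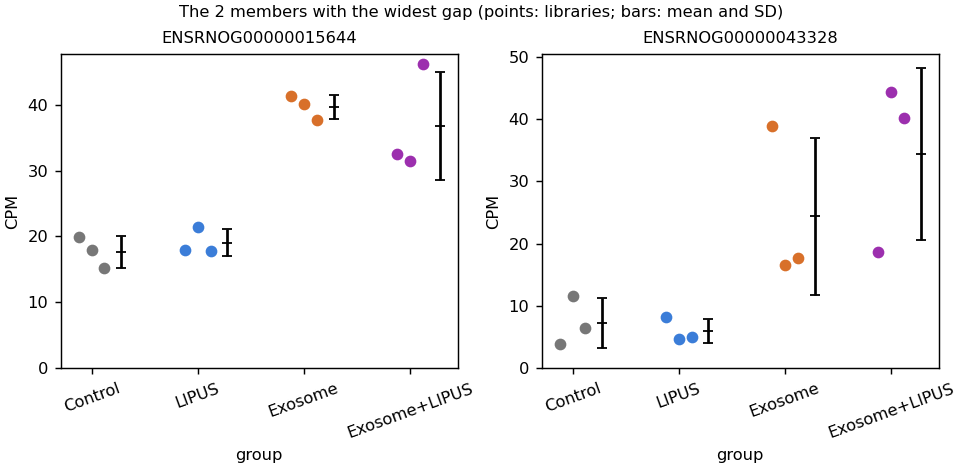
CPM of ENSRNOG00000015644 and ENSRNOG00000043328 in each library of the 4 groups, with points for libraries and bars for the group mean and SD (n = 3). Every exosome point is above every other point by the choice of the members, and in ENSRNOG00000043328 the exosome points range from 16.6 to 44.3 CPM.

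The next members by gap spanned a wide range of levels. The members with the fifth, the sixth and the seventh widest gaps had means of 48.1, 34.3 and 15.7 CPM. The means of the 2 named IDs were 28.3 and 18.0 CPM. The members with the third and the fourth widest gaps were far more abundant. The member with the third widest gap, 1.40, had 264 to 322 CPM in the 6 libraries without exosomes and 451 to 604 CPM in the 6 with them, a fold of 1.87. Its group means were 300 ± 22.9 CPM in Control, 283 ± 16.8 CPM in LIPUS, 546 ± 83.3 CPM in Exosome and 542 ± 40.3 CPM in Exosome+LIPUS (SD, n = 3 each). The member with the fourth widest gap, 1.39, had 1064 to 1260 CPM without exosomes and a wide range of 1753 to 3571 CPM with them, a fold of 2.16. In it Exosome replicate 2 (3024 CPM) and Exosome+LIPUS replicates 1 and 3 (2660 and 3571 CPM) stood above the other 3 exosome libraries (1753 to 2117 CPM).

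At the ends of the range of levels the differences were small or imprecise. The most abundant member lay between 3293 and 3986 CPM without exosomes and between 4401 and 5842 CPM with them, a fold of 1.35. The next most abundant lay between 2609 and 3439 CPM without them and between 3900 and 5610 CPM with them, a fold of 1.46. The member of lowest level lay between 5.35 and 8.17 CPM without exosomes and between 9.07 and 27.9 CPM with them. The smallest fold of all, 1.14, belonged to a member with 842 to 956 CPM without exosomes and 967 to 1101 CPM with them.

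The largest fold of all, 5.55, belonged to a member with uneven levels on both sides. It had 6.11, 21.0 and 5.59 CPM in Control, 16.3, 6.02 and 7.84 CPM in LIPUS, 73.7, 33.3 and 28.1 CPM in Exosome and 80.5, 54.3 and 79.1 CPM in Exosome+LIPUS. Within the Exosome group its highest library was above the other 2 by more than the whole range seen without exosomes. The fold was 4.13 for Exosome over Control and 7.08 for Exosome+LIPUS over LIPUS.

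The members had to separate in the arms without and with ultrasound alike, so their folds in both arms are a description. The median fold was 1.53 (1.11 to 5.76) for Exosome over Control and 1.56 (1.13 to 7.08) for Exosome+LIPUS over LIPUS. The fold was larger with ultrasound in 52 members and larger without it in 44. The fitted log2 fold changes had a median of 0.55 (0.08 to 2.44) and of 0.60 (0.14 to 2.80), and over the 6 libraries against 6 a median of 0.59 (0.14 to 2.40). The medians over all 4640 genes tested were -0.01, 0.02 and 0.01.

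Since the members were chosen on these contrasts, the counts that passed the quasi-likelihood test of edgeR after Benjamini-Hochberg adjustment carry no further evidence. For Exosome against Control, 1 member was called higher, where 0.108% of all genes tested were. For Exosome+LIPUS against LIPUS 23 members were called higher, beside 1.36% of all genes. For the 6 exosome libraries against the 6 others 61 members were called higher, beside 2.65% of all genes. These counts were unstable, and so were those over all genes. With a replicate left out, the genes called higher numbered 0 to 14, 12 to 110 and 73 to 164 in turn. With no replicate left out, the genes called higher numbered 5, 63 and 123. The 1 member became 0 without Control replicate 1 or 4, Exosome replicate 2, Exosome+LIPUS replicate 2 or any LIPUS replicate, and it became 3, 2 or 4 members without Control replicate 9, Exosome replicate 3 or Exosome replicate 5. Without Exosome+LIPUS replicate 3, LIPUS replicate 2, LIPUS replicate 6 or LIPUS replicate 7 the 23 became 4, 7, 6 or 5, and without Control replicate 9 they became 35. Without Exosome replicate 2 the 61 became 40.

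Many more IDs separated in a single arm. Every Exosome library lay above every Control library for 372 IDs (9.23%), and every Exosome+LIPUS library lay above every LIPUS library for 630 IDs (15.6%). All 96 members are among both by the rule. The 139 IDs that separated in both arms were 37.4% of the 372 and 22.1% of the 630, and 102 of the 139 also held across all 12 libraries.

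**Figure D4:**
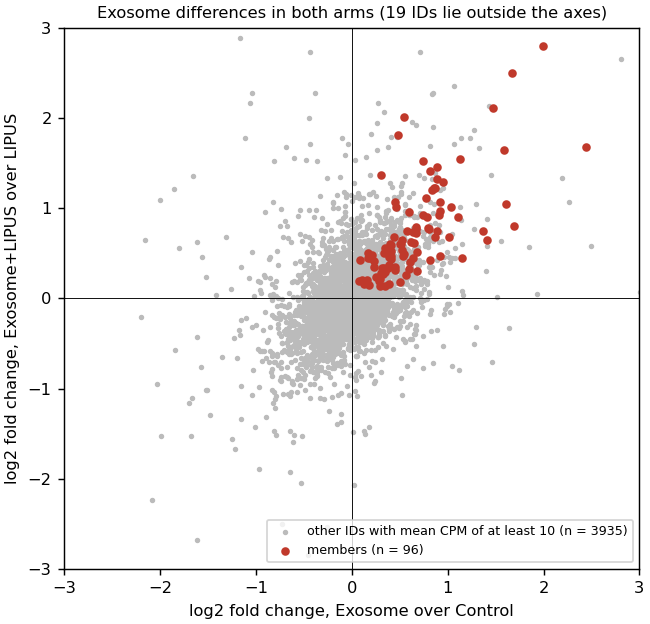
The log2 fold change of Exosome over Control is plotted against that of Exosome+LIPUS over LIPUS for members and for 3935 other IDs with a mean of at least 10 CPM, with 19 of the latter outside the axes. The members lie in the upper right, from 0.08 to 2.44 on the horizontal and from 0.14 to 2.80 on the vertical axis, as their choice required.

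The exosome libraries did not carry the difference to the same degree. Relative to each member's mean over the 12 libraries, the median log2 level was 0.39, 0.22 and 0.26 in Exosome replicates 2, 3 and 5 and 0.34, 0.23 and 0.41 in Exosome+LIPUS replicates 1, 2 and 3. Exosome replicate 3 was the lowest of the 6 exosome libraries in 37 members (38.5%), against 18.0% of all IDs with a mean of at least 10 CPM. Exosome replicate 2 was the highest in 28 members (29.2%, against 12.9% of all IDs) and Exosome+LIPUS replicate 1 in 30 (31.2%, against 18.9%), whereas Exosome+LIPUS replicate 2 was the highest in 2 (2.08%, against 13.8%).

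On the side without exosomes the medians were -0.23, -0.23 and -0.41 in Control replicates 1, 4 and 9 and -0.25, -0.29 and -0.33 in LIPUS replicates 2, 6 and 7. Control replicate 9, the library with 32.5% of its counts in a single gene, was the lowest of the 6 in 40 members (41.7%), close to its share of 40.0% among all IDs. Control replicate 1 was the highest of the 6, and so set the limit, in 23 members (24.0%, against 27.4% of all IDs). Without Control replicate 1 the rule would have held for 154 IDs and without Exosome replicate 3 for 147, and all 96 members were among each. Leaving out a library cannot narrow the gap, so members can be lost only at the limit on the mean level. That the members were kept is therefore no sign of stability.

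Within groups the members varied less than the genes of the same minimum level as a whole. The pooled SD of log2(CPM + 1) within groups had a median of 0.215 (quartiles 0.149 and 0.312) in the members and 0.292 (0.190 and 0.439) over all 4032 IDs. A rule that asks for no overlap prefers a small spread, so this too is a description of the choice. Members and all IDs were not matched for level here. With each group's mean taken away, the median correlation between pairs of members across the 6 exosome libraries was 0.23, against 0.02 over pairs of all IDs, and 9.1% of member pairs exceeded 0.8 against 5.63%. Across the 6 libraries without exosomes the medians were 0.08 and 0.07, and 9.52% of member pairs exceeded 0.8 against 9.99% of all pairs. These correlations are over 6 libraries that share depth and preparation and have no test.

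In the exosome libraries the main axis of the members' deviations from their group means held 46.2% of that variance. Exosome replicate 2 (score 0.65) and Exosome+LIPUS replicate 3 (0.48) stood at one end of it and the other 4 libraries between -0.20 and -0.41 at the other. On this axis 70 of the 96 members had the same sign. Its direction was set by the median member, so the larger part of the members shares the sign by construction. Neither that count nor the share of variance was compared with all IDs. In the libraries without exosomes the main axis held 55.8% and Control replicate 9 lay at its end (-0.79). The part of that library's largest gene in this spread was not tested.

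The rule sets no direction between groups with and without ultrasound, but it used the values of all 12 libraries. By asking for no overlap it favoured IDs with a spread that is small beside the difference between the sides. Counts of members in the 3 ultrasound comparisons, and their shares beside those of all genes, are therefore not independent of the choice. They do not show that ultrasound left the members unaltered. In LIPUS against Control 0 of the 96 passed the quasi-likelihood test of edgeR after Benjamini-Hochberg adjustment, where 0.0% of the 4640 genes tested did (smallest adjusted p among members 0.999). At an unadjusted p under 0.05 in that test there was 1 member, higher in LIPUS, beside 2.44% of all genes (40 higher and 73 lower). The log2 fold change had a median of -0.02 in the members (quartiles -0.13 and 0.09, range -0.71 to 0.90) and of -0.02 over all genes. It was above 0 in 45 members and below 0 in 51, beside 45.3% and 54.7% of all genes. The half-width of the 95% interval had a median of 0.40 over the members.

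Libraries of LIPUS and Control overlapped in nearly every member, as they did in nearly all of the 4032 IDs. All 3 LIPUS libraries lay above all 3 Control libraries in 4 members (4.17%), beside 2.88% of all IDs, and below them in 1 (1.04%), beside 2.28%. The member with the smallest p had 9.94, 7.78 and 6.39 CPM in Control and 16.3, 17.4 and 12.1 CPM in LIPUS, with no overlap. Its log2 fold change was 0.90 ± 0.38 (SE), with an edgeR unadjusted p of 0.0313 and an adjusted p of 0.999. The next had 348, 554 and 941 CPM in Control and 493, 366 and 374 CPM in LIPUS, which overlap, and its log2 fold change was -0.64 (95% interval -1.31 to 0.02). For ENSRNOG00000015644 the log2 fold change was 0.10 (95% interval -0.46 to 0.66), and for ENSRNOG00000043328 it was -0.32 (95% interval -1.54 to 0.90).

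The same limit holds for ultrasound added to exosomes, where 5 members had an unadjusted p under 0.05. In Exosome+LIPUS against Exosome 0 of the 96 members passed edgeR's test after adjustment, where 0.0% of all genes did. The 5 members before adjustment were all higher with ultrasound. Of all 4640 genes 5.52% had such a p in either direction, 151 genes higher and 105 lower. The median log2 fold change was 0.03 in the members (quartiles -0.08 and 0.15, range -0.42 to 1.21) and -0.01 over all genes. The log2 fold change was above 0 in 56 members and below 0 in 40, beside 48.0% and 52.0% of all genes. The 3 libraries of Exosome+LIPUS lay above the 3 of Exosome in 5 members (5.21%), beside 6.87% of all IDs, and below them in 1 (1.04%), beside 6.32%. The median half-width of the 95% interval was 0.39. For ENSRNOG00000015644 the log2 fold change was -0.10 (95% interval -0.61 to 0.40) and for ENSRNOG00000043328 it was 0.51 (95% interval -0.45 to 1.47).

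A pair of members had the largest differences with ultrasound in animals given exosomes. The first had 40.5, 41.2 and 31.1 CPM in Control, 27.0, 36.8 and 40.6 CPM in LIPUS, 56.7, 52.2 and 55.4 CPM in Exosome and 153, 106 and 121 CPM in Exosome+LIPUS. The Exosome+LIPUS libraries lay well above the Exosome libraries, and those above both groups without exosomes, which overlapped. Its log2 fold change between Exosome+LIPUS and Exosome was 1.21 ± 0.20 (SE), with a 95% interval of 0.79 to 1.64 and an adjusted p of 0.0568 in the quasi-likelihood test of edgeR after Benjamini-Hochberg adjustment. The second had 39.7, 26.5 and 28.1 CPM in Exosome and 76.7, 61.5 and 65.9 CPM in Exosome+LIPUS, against 25.2, 21.0 and 16.0 CPM in Control and 18.0, 15.4 and 15.7 CPM in LIPUS. Its log2 fold change was 1.12 ± 0.23 (SE), with an adjusted p of 0.114 in the same edgeR test.

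Whether any member passed in this comparison depended on the setting. The number of members called was 1 without Control replicate 9, LIPUS replicate 2 or LIPUS replicate 7, beside 8, 2 and 3 genes called higher over all. It was 2 with DESeq2, beside 17 genes called higher and 1 lower over all. With no filter on low counts it was 1, beside 60 genes called higher and 25 lower. With at least 10 counts in every library it was 1, beside 4 genes called higher.

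**Figure D5:**
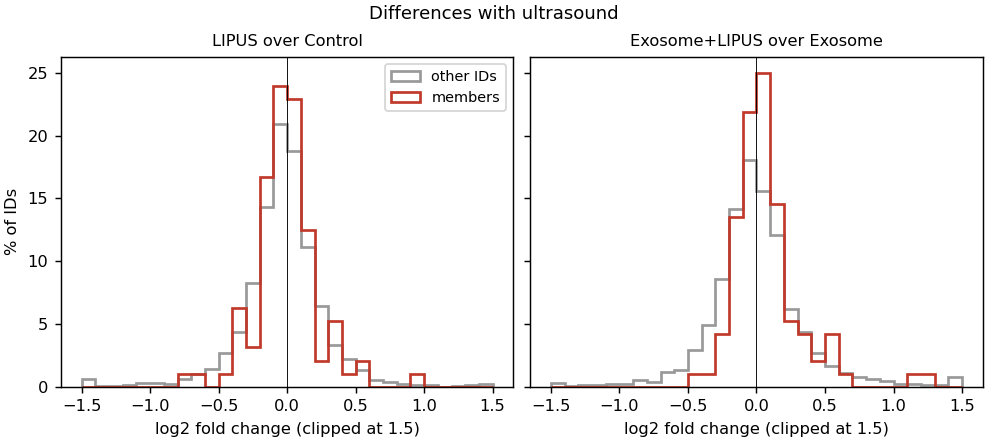
Histograms of the log2 fold change of LIPUS over Control and of Exosome+LIPUS over Exosome, as percent of members and of other IDs, clipped at 1.5. Both histograms of the members are centred near 0, with medians of -0.02 and 0.03, and the 2 members above 1 on the right are the pair with the largest differences.

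The difference between the effects of ultrasound with and without exosomes was fitted as an interaction, and the rule had already required both exosome differences to be positive and separated in every member. None of the 96 members passed edgeR's test after adjustment, where 0.0% of all genes did. In that test 3 members, all above 0, had an unadjusted p under 0.05, beside 4.22% of all genes (123 above 0 and 73 below). The median interaction was 0.05 on the log2 scale in the members (quartiles -0.10 and 0.24, range -0.89 to 1.47) and 0.02 over all genes. The interaction was above 0 in 56 members, beside 52.7% of all genes. The 2 smallest p-values belonged to the same pair, with interactions of 1.33 (95% interval 0.71 to 1.95) and 1.47 (95% interval 0.73 to 2.21) and an adjusted p of 0.61 each in edgeR's quasi-likelihood test. The median half-width of the 95% interval was 0.56.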

How the data were processed

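Poly(A) RNA of 12 libraries was analysed. According to the submitters' processing notes the authors used Trimmomatic (version 0.38), HISAT2 (version 2.0.5), SAMtools and StringTie with the genome build Rnor 6.0. They deposited whole-number counts per Ensembl gene ID, without normalization. The counting settings and annotation were not given in the sources used here. Groups and replicate numbers came from the sample labels, and each column was matched to a library by name.

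CPM values for the choice of members used library totals without the single largest gene, and SDs and correlations were taken on log2(CPM + 1). The members and lists were chosen with earlier results of these data known. Counts were filtered with filterByExpr, scaled with TMM factors and fitted by edgeR's quasi-likelihood method (version 4.0.16, R version 4.3.3) on all 12 libraries with 1 mean per group. Of the IDs, 4640 were tested, which include all 96 members, and p-values were adjusted over them by Benjamini-Hochberg with a threshold of 0.05. A standard error is the absolute log2 fold change over the square root of F. The steps were tested on simulated data. DESeq2 (version 1.42.0), RLE factors, an absent filter or one of 10 counts in each library, only the groups compared, a replicate block and each replicate left out were alternatives. By the rule for named genes, only the 2 members with the widest gap were named, because the reference table (47357 genes, 0 with an Ensembl ID) matched no ID. Other members are given by their rank in level, gap, fold or p. Lists of marker and pathway genes need gene names and were not used here.

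Totals were 1251715 to 1854545 counts per library. Replicates of a group differed by more than counting noise, so each was used as 1 sample. Exact Poisson intervals (95%) cover counting error only.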

Additional observations from a re-analysis of the deposited data

How the results depend on the processing

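The counts of members called, and of all genes called, moved with the processing, and the cause was not tested. In Exosome against Control, 1 member was called, beside 5 genes called higher over all. There were 22 members with DESeq2, beside 34 genes, and 30 with no filter on low counts, beside 72 genes. With at least 10 counts in every library there were 3, beside 7 genes. With only the 2 groups compared there were 0, beside 2 genes, and with a replicate left out 0 to 4, beside 0 to 14 genes. In Exosome+LIPUS against LIPUS, leaving out a replicate gave 4 to 35 members against 23, beside 12 to 110 genes called higher against 63. Over the 6 exosome libraries against the 6 others it gave 40 to 67 members against 61, beside 73 to 164 genes against 123. In LIPUS against Control the count of members was 1 with no filter, beside 15 genes called higher and 32 lower, and 0 otherwise. In Exosome+LIPUS against Exosome it was 2 with DESeq2, 1 with no filter, 1 with at least 10 counts in every library and 0 to 1 with a replicate left out. The genes called higher over all at these settings numbered 17, 60, 4 and 0 to 8 in turn. The interaction gave 0 members under each of 17 alternatives, while with no filter 50 genes were called higher and 14 lower. With a gap of at least 1.1, 45 members were left. Leaving out a replicate, which cannot narrow the gap, gave 104 to 154. The log2 fold change of the 6 exosome libraries over the 6 others stayed between 0.89 and 1.06 for ENSRNOG00000015644 and between 1.83 and 2.32 for ENSRNOG00000043328.

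Only the numbers 2 and 3 are shared by Exosome and Exosome+LIPUS. The deviations of these libraries from their group means correlated at -0.116 and -0.009, beside -0.041 to 0.057 for libraries with unlike numbers. With 3 libraries in a group, such correlations cannot settle whether the numbers mark pairs. With the replicate block 0 members were called in that comparison, and 11 genes over all, against 0 without the block. Depth limits the members of low level most. The lowest count of any member in a library was 3.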
